A study of Mus musculus with 10 samples.

Results

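The RGS genes encode regulators of G protein signalling. The 10 listed genes, Rgs1, Rgs2, Rgs3, Rgs4, Rgs5, Rgs10, Rgs16, Rgs17, Rgs18 and Rgs19, were read among 18193 genes in cultured mouse lung fibroblasts. All 10 were measured. The genes were selected on earlier results of the same CAF and normal arrays, in which the size of the Rgs16 difference was already known. Each was represented by its single-gene probe set (the group of short probes that reads 1 transcript) with the highest mean over all arrays, and its other probe sets served as a check. The 2 groups, named by the sample titles, were 5 arrays of carcinoma-associated fibroblasts (CAF), the fibroblasts of a tumour's stroma, and 5 arrays of normal lung fibroblasts. Per the labels, cells of both groups came from mouse lungs, were grown for 10 to 14 days with 10% serum and then spent a night on 10 cm dishes before RNA was taken, so the values describe fibroblasts after culture. The labels name no strain, age, allele or tumour model for either group. The description codes start with ls on all 5 CAF arrays and on 2 normal arrays (replicates 4 and 5), and with vs on the other 3 normal arrays (replicates 1 to 3), with no word on what these prefixes mean. The titles number the arrays of each group as biological replicates. Nothing in the labels says whether arrays of a group came from separate animals, so p-values measure the spread between these cultures.

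A G protein is switched on when a receptor at the cell surface makes its alpha subunit take up GTP, and off when the alpha subunit cleaves that GTP. An RGS protein speeds up the cleavage and so shortens the signal. In the subfamilies, R4 proteins are mostly small and act on alpha subunits of the Gi and Gq classes, RZ proteins act on Gz and Gi, R12 proteins act on Gi, and R7 proteins are obligate partners of the beta subunit Gnb5. Many R4 genes are themselves switched on by stimuli of the cell, and in fibroblasts the receptors they limit include those for lysophospholipids, bradykinin and thrombin.

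The genes with the clearest separation between groups were Rgs16 and Rgs17, and the neighbouring genes Rgs4 and Rgs5 were high on partly the same arrays. The promoters of these 4 genes are shown for that reason, each as the 250 bases before the annotated start (RefSeq, mouse build GRCm38.p6, read 5′ to 3′ on the strand of the gene). Capitals mark matches to 4 motifs, searched on both strands.
Rgs16, chr1:153740103-153740352, + strand: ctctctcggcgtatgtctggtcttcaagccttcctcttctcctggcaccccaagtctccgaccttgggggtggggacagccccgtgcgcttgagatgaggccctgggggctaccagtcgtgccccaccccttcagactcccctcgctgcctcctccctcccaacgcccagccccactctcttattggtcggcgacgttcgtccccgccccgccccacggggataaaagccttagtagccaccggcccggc
Rgs17, chr10:5922401-5922650, - strand: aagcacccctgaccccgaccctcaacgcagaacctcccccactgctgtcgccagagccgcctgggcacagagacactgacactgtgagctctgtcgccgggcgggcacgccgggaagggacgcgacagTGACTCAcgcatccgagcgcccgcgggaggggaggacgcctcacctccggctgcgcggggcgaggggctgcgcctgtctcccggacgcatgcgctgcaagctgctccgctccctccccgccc
Rgs4, chr1:169747643-169747892, - strand: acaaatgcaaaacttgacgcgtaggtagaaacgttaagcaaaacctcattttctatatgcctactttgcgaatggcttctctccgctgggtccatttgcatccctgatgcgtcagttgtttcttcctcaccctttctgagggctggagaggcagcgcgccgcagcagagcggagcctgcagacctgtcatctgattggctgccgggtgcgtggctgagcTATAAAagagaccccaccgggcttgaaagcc
Rgs5, chr1:169655251-169655500, + strand: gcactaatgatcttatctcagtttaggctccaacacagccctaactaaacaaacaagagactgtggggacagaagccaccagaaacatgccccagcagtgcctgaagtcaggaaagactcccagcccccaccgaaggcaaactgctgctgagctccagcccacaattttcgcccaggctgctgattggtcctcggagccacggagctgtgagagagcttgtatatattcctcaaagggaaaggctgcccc
The motifs were the cyclic AMP response element TGACGTCA, the AP-1 element TGANTCA, an NF-kappaB element and the TATA box TATAAA, none of which overlap in these sequences. Of 32851 promoters in the table, 1.55% hold the first, 6.75% the second, 1.21% the third and 12.4% the fourth within the same 250 bases. Rgs17 holds 1 AP-1 match, starting 122 bases before the start, and Rgs4 holds 1 TATA match, starting 31 bases before it. The windows of Rgs16 and Rgs5 hold none of these letters. The promoters of Rgs16 and Rgs17 are richer in G and C (66.4% and 72.4%) than those of Rgs4 and Rgs5 (53.6% each), against a median of 52.4% over all promoters. Among the listed genes not shown, whose groups overlapped, Rgs10 had 76.4% and Rgs2 72.4%. The windows of Rgs19 and Rgs3 ran from 48.4% to 74.8%. A match is a description of the sequence and no evidence of binding. Promoter entries were present for 8 of the 10 genes. On chromosome 1 lie 6 of the genes, where Rgs4 follows Rgs5, and Rgs16 follows Rgs8, with 0 protein-coding genes between.

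**Figure D1:**
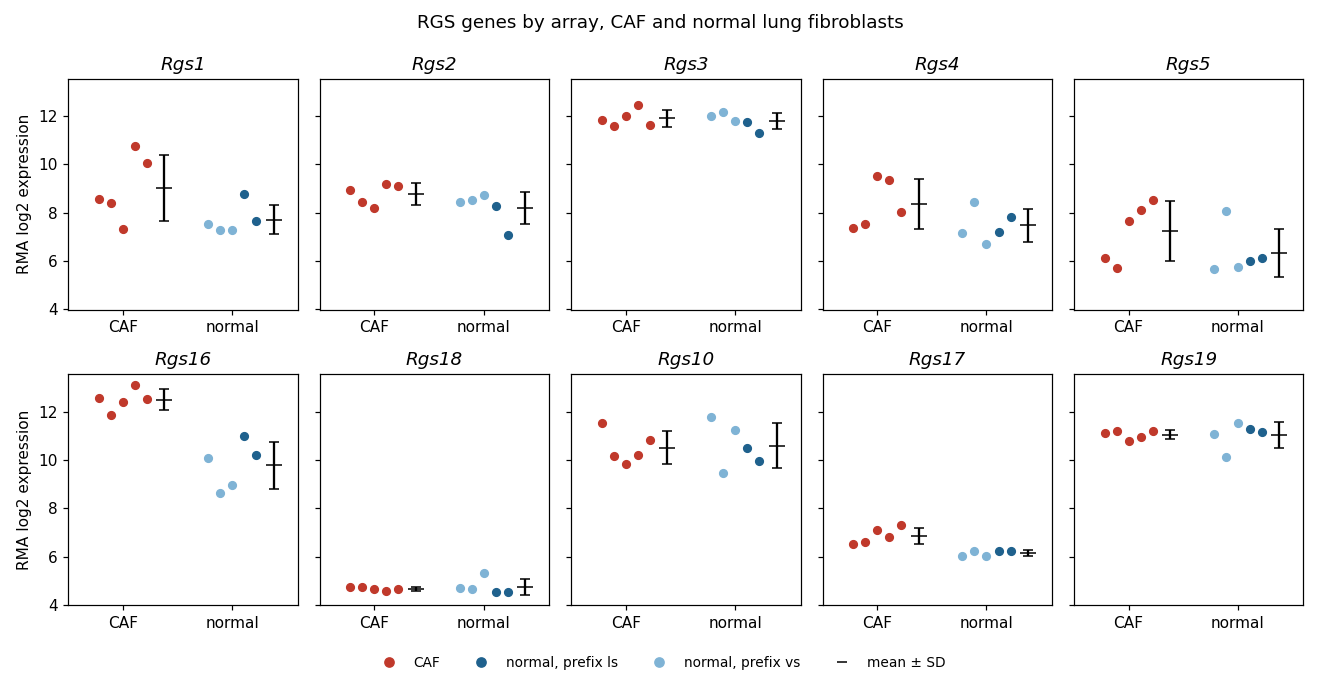
RMA log2 expression of the 10 RGS genes on each array, CAF on the left and normal lung fibroblasts on the right of each panel, with the normal arrays coloured by label prefix and the mean ± SD of each group in black. The CAF points lie wholly above the normal points for Rgs16 and Rgs17 and overlap them in the other 8 panels. Heights may be compared within a panel, not between genes.

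Rgs16 rose in CAF, with a mean difference of 6.63-fold and no overlap between the groups, and it was the only 1 of the 10 genes called in the comparison of all genes. Of the 10 genes, 8 had a positive difference and 2 a negative one. The median difference of the 10 was 0.65 on the log2 scale, beside -0.04 over all 18193 genes, of which 42.7% were positive. The test was limma's moderated test over all genes with Benjamini-Hochberg adjustment. Genes with an adjusted p under 0.05 count as called, which held for 0.561% of all genes in the direction higher in CAF and 0.192% in the direction lower, while 22.3% of all genes had an unadjusted p under 0.05. The CAF and normal values did not overlap for 2 of the 10 genes, both with CAF above, as for 2.97% of all genes; CAF lay wholly below for 4.19%, and 7.16% had no overlap in either direction. Since the list was drawn up with results of this comparison known, the counts and the values below are descriptions, each adjusted p is the gene's place in the fit over all genes, and none is independent evidence about the family.

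Among the R4 genes, Rgs16 encodes a small protein that limits Gi and Gq signals. It had log2 values of 12.60, 11.87, 12.41, 13.12 and 12.56 on the CAF arrays, against 10.08, 8.64, 8.98, 11.00 and 10.21 on the normal arrays. The lowest CAF culture lay above the highest normal culture, and the normal cultures were spread over 2.36 units, the CAF cultures over 1.25. The means were 12.51 ± 0.45 in CAF and 9.78 ± 0.96 in normal cultures (SD, n = 5 each), a difference of 2.73 ± 0.43 (SE), or 6.63-fold (limma adjusted p = 0.0394; 95% interval 1.76 to 3.69). The 2 normal arrays that share the prefix ls with CAF were the highest of the normal group. Against them alone the difference was 1.91 ± 0.34 (limma adjusted p = 0.107), and against the 3 vs arrays it was 3.28 ± 0.37 (limma adjusted p = 0.0207). With the prefix as a term of the model the difference was 1.91 ± 0.43 (limma adjusted p = 0.298). The call was also lost, with differences of 2.53 to 2.84, when normal replicate 1, 3 or 5 or CAF replicate 1, 3, 4 or 5 was left out.

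The other probe sets of Rgs16 gave the same picture at other sizes. One had means of 11.83 ± 0.41 in CAF and 9.24 ± 0.86 in normal cultures (SD, n = 5 each), a difference of 2.59 ± 0.39. The other had 11.71 ± 0.36 in CAF and 9.61 ± 0.64 in normal cultures (SD, n = 5 each), a difference of 2.10 ± 0.30. On both, the lowest CAF array lay above the highest normal array. They read the same RNA samples, so they check the probes and not the cultures.

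**Figure D2:**
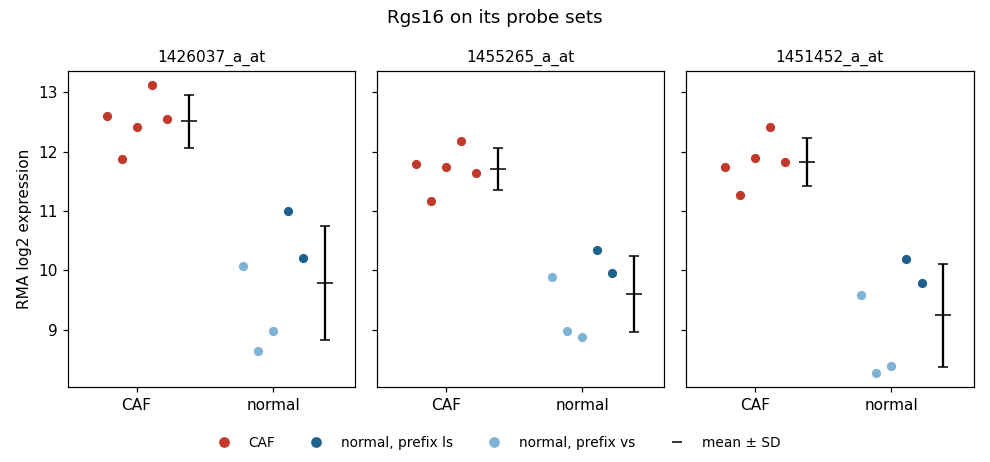
RMA log2 expression of Rgs16 on its 3 probe sets, CAF left and normal lung fibroblasts right, with mean ± SD of each group (n = 5 each). The probe set used for the gene is in the left panel. On each probe set all CAF points lie above all normal points, and normal replicates 4 and 5 (prefix ls) lie above the 3 vs arrays.

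Rgs1, known from B and T cells as a brake on chemokine receptor signals, varied widely between cultures. Its values were 8.57, 8.40, 7.34, 10.77 and 10.06 on the CAF arrays, against 7.53, 7.29, 7.29, 8.77 and 7.67 on the normal arrays. CAF replicates 4 and 5 lay above every normal array, and CAF replicate 3 lay among the lowest normal ones. The difference was 1.32 ± 0.61 and did not pass the test (limma adjusted p = 0.238; 95% interval -0.05 to 2.68). Normal replicate 4, the highest of its group for Rgs16, was also the highest for Rgs1, and CAF replicate 4 was the highest CAF array for both genes.

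Rgs4, a small regulator of Gi and Gq signals best known from brain and heart, and Rgs5, a widely used marker of pericytes and vascular smooth muscle, are neighbours on the chromosome. Rgs4 had 7.35, 7.54, 9.53, 9.35 and 8.02 on the CAF arrays, against 7.15, 8.44, 6.70, 7.21 and 7.83 on the normal arrays. Rgs5 had 6.11, 5.71, 7.66, 8.09 and 8.54 on the CAF arrays, against 5.65, 8.08, 5.75, 6.00 and 6.11 on the normal arrays. For both genes CAF replicates 3, 4 and 5 were the highest of their group and normal replicate 2 the highest of the normal group, and CAF replicates 1 and 2 lay within the normal range. Neither difference passed the test, at 0.89 ± 0.50 for Rgs4 (limma adjusted p = 0.317; 95% interval -0.22 to 2.00) and 0.90 ± 0.65 for Rgs5 (limma adjusted p = 0.431; 95% interval -0.54 to 2.35). Without normal replicate 2 the difference of Rgs5 was 1.35, and without CAF replicate 5 it was 0.58. The 2 dimmer probe sets of Rgs4 had 0.49 ± 0.35 and 0.45 ± 0.26. Of the 3 dimmer probe sets of Rgs5, one had 0.38 ± 0.30, and those with the suffixes x and s, given to probes that may bind other transcripts, had -0.12 ± 0.09 and 0.04 ± 0.16. The 11 markers of pericytes and vascular smooth muscle, measured on the same arrays, had a mean level of 8.70 to 9.19 in CAF and 8.48 to 9.14 in normal fibroblasts, with 8.94, 8.70 and 8.98 on CAF replicates 3, 4 and 5 and 8.71 on normal replicate 2, where Rgs5 was high. Of these markers 0 passed limma's test (2 at an unadjusted p under 0.05), and 6 had a positive and 5 a negative difference. The 2 were Kcnj8, at 8.68 in CAF and 7.36 in normal cultures, and Myh11. Their differences were 1.32 ± 0.28 (limma adjusted p = 0.0589) and 1.12 ± 0.41 (limma adjusted p = 0.152). For Kcnj8 CAF lay wholly above normal, as for 2.97% of all genes. The largest negative difference was -0.70 ± 0.43, for Ndufa4l2. The part of pericytes and vascular smooth muscle in the Rgs5 values was not tested. In bulk RNA more cells of a type and more of the RNA in each cell cannot be told apart.

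Rgs2, which acts mainly on Gq and is known for limiting the response to vasoconstrictors, had 8.96, 8.45, 8.18, 9.18 and 9.09 on the CAF arrays, against 8.42, 8.52, 8.74, 8.28 and 7.05 on the normal arrays. Normal replicate 5 stood below all other arrays, and the rest of the groups overlapped. The difference was 0.57 ± 0.32 (limma adjusted p = 0.327), and 0.28 without normal replicate 5. It was 1.11 ± 0.39 against the ls normal arrays and 0.21 ± 0.24 against the vs normal arrays, where the mean of 16 macrophage markers differed by 1.04 and 0.04. The dimmer probe sets of Rgs2 had 0.48 ± 0.42, 0.75 ± 0.36 (suffix s) and 0.01 ± 0.07. The last was the dimmest, at 5.38 in CAF and 5.36 in normal cultures. Rgs3, which is made in long and short forms and acts on Gi and Gq, had a narrow range, from 11.57 to 12.49 in CAF and from 11.29 to 12.19 in normal fibroblasts. Its difference was 0.11 ± 0.21 (limma adjusted p = 0.789; 95% interval -0.35 to 0.56), and its 3 dimmer probe sets, which may read different forms, had 0.24 ± 0.22, -0.07 ± 0.05 and -0.24 ± 0.09.

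Rgs18, known from platelets and other blood cells, was near the low end of the table, whose values start at 3.98. It had 4.72, 4.72, 4.63, 4.55 and 4.67 on the CAF arrays, against 4.71, 4.64, 5.33, 4.53 and 4.51 on the normal arrays. Only normal replicate 3 stood apart, also on the other probe set of the gene, at 5.27 against 4.43 to 4.75 on the other arrays. The same array stood apart in neutrophil markers, with a mean of 10.65 over 9 markers, against 6.64 to 7.13 on the CAF arrays and 6.49 to 7.22 on the other normal arrays. The mean of 8 platelet and megakaryocyte markers was also highest there, at 8.68, against 8.01 to 8.49 on the CAF arrays and 7.93 to 8.41 on the other normal arrays. Only some of these 8 markers varied among the normal arrays. Their SD there was 2.70 for Ppbp, 1.02 for Pf4 and 0.92 for Gp1bb. It was 0.29 for Treml1, 0.10 for Itga2b, 0.09 for Gp9 and Gp5, and 0.06 for Gp6. Whether neutrophils, platelets or megakaryocytes gave the Rgs18 signal was not tested. The difference of Rgs18 was -0.085 ± 0.15 (limma adjusted p = 0.757) and 0.060 without normal replicate 3. On its other probe set it was -0.18 ± 0.15.

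Of the RZ genes, Rgs17 limits signals through Gz and Gi. It had 6.51, 6.59, 7.11, 6.82 and 7.29 on the CAF arrays, against 6.01, 6.22, 6.01, 6.24 and 6.22 on the normal arrays. Every CAF array lay above every normal array, and the normal arrays were close together. The means were 6.86 ± 0.33 in CAF and 6.14 ± 0.12 in normal cultures (SD, n = 5 each), a difference of 0.72 ± 0.15, or 1.65-fold, which did not pass the test (limma adjusted p = 0.0570; 95% interval 0.39 to 1.06). It passed with each array centred on its median (limma adjusted p = 0.0435) and with arrays weighted by their quality (limma adjusted p = 0.0370), and did not pass in the 19 other alternatives run for it. The difference was 0.63 ± 0.22 with the ls normal arrays alone and 0.79 ± 0.19 with the vs normal arrays alone. The second probe set had 0.61 ± 0.18, and there CAF replicate 2, at 6.14, lay below normal replicate 2, at 6.18. Rgs19, which acts on the Gi class and was first known as GAIP, had 11.12, 11.20, 10.81, 10.95 and 11.22 on the CAF arrays, against 11.09, 10.15, 11.55, 11.31 and 11.18 on the normal arrays. The CAF values lay within the normal range. The difference was 0.01 ± 0.23 (limma adjusted p = 0.991; 95% interval -0.51 to 0.53). On the other probe set of Rgs19, which has the suffix x, it was 0.01 ± 0.29.

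**Figure D3:**
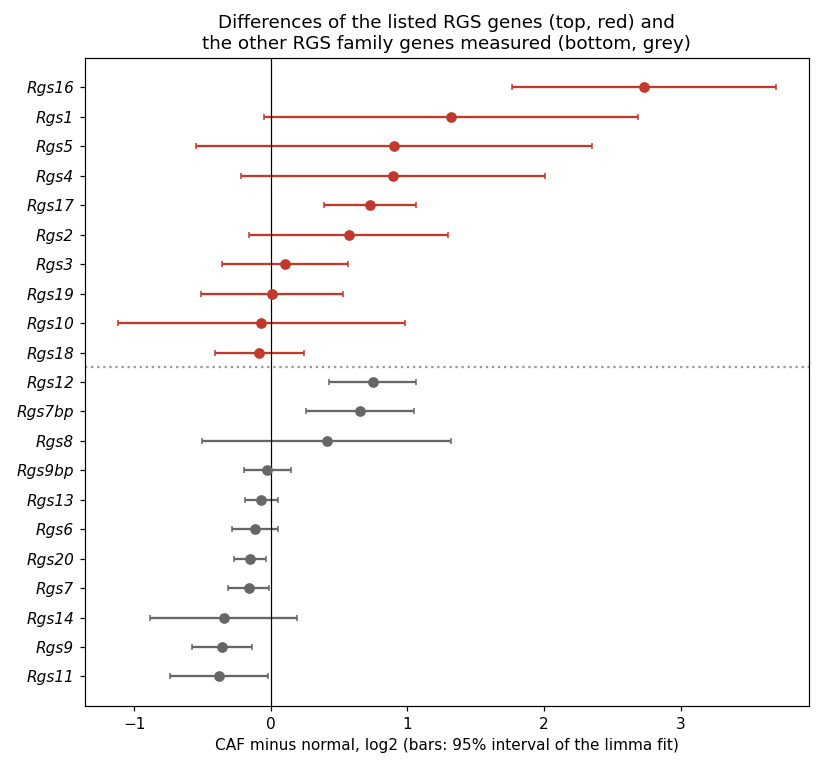
Difference of each RGS gene, CAF minus normal, in log2 units, with its 95% interval from the limma fit. The 10 listed genes are above the dotted line and the 11 other RGS family genes measured below it. Rgs16 lies farthest to the right at 2.73. Among the other family genes Rgs12 (0.74) and Rgs7bp (0.65) have positive intervals. Rgs11 (-0.38), Rgs9 (-0.36), Rgs7 (-0.16) and Rgs20 (-0.15) have negative ones.

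Rgs10, the listed member of the R12 subfamily, is a small regulator of Gi signals known from microglia, macrophages and other immune cells. It had 11.55, 10.18, 9.82, 10.23 and 10.84 on the CAF arrays, against 11.78, 9.47, 11.25, 10.50 and 9.97 on the normal arrays. High and low cultures occurred in both groups, and the difference was -0.07 ± 0.47 (limma adjusted p = 0.944) with a 95% interval of -1.12 to 0.98. The cultures were ordered by their macrophage markers in nearly the same way. The mean of 16 macrophage and monocyte markers was 12.81, 10.83, 10.26, 11.29 and 12.10 on the CAF arrays, against 12.88, 9.37, 11.99, 10.87 and 9.96 on the normal arrays. Over the 10 arrays Rgs10 and this mean had a Pearson r of 0.96 (permutation p = 2e-05) and a Spearman rho of 0.96 (permutation p = 5e-05), 2-sided with 100000 resamples. Adjusted over the 10 relations computed, 1 for each listed gene, these were 0.0002 and 0.0005. Without normal replicate 1 and CAF replicate 1, the arrays farthest from the median of the marker mean, r was 0.93. Over the 7 arrays with the prefix ls it was 0.94, and the 3 vs arrays were too few to give a value.

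None of the other 9 genes passed in this family of relations. The r largest in size among them were 0.57 for Rgs19 (permutation p = 0.0772, adjusted 0.333) and 0.54 for Rgs2 (permutation p = 0.100, adjusted 0.333). Rgs4 had r = -0.49 (permutation p = 0.155, adjusted 0.387). Without normal replicate 1 and CAF replicate 1, r was 0.74 for Rgs19, 0.62 for Rgs2, -0.34 for Rgs4 and -0.03 to 0.53 for the rest. Rgs16 had r = 0.27 (permutation p = 0.447) and rho = 0.31 (permutation p = 0.390), adjusted 0.579 and 0.584. Rgs1 had r = 0.26 (permutation p = 0.463) and rho = 0.30 (permutation p = 0.409), adjusted 0.579 and 0.584. Over the 7 ls arrays alone r was 0.61 for Rgs16, 0.52 for Rgs1, 0.79 for Rgs2 and 0.58 for Rgs18. It was -0.29 to 0.26 for Rgs3, Rgs4, Rgs5, Rgs17 and Rgs19. These values are descriptions without a test. The ls arrays are 5 CAF and 2 normal ones, with marker means of 11.46 and 10.41, so the group difference enters them. The CAF minus normal difference of the marker mean was 1.04 with the ls normal arrays alone and 0.04 with the vs ones alone. The part of these cells in the differences of Rgs16, Rgs1 and Rgs2 was not tested.

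**Figure D4:**
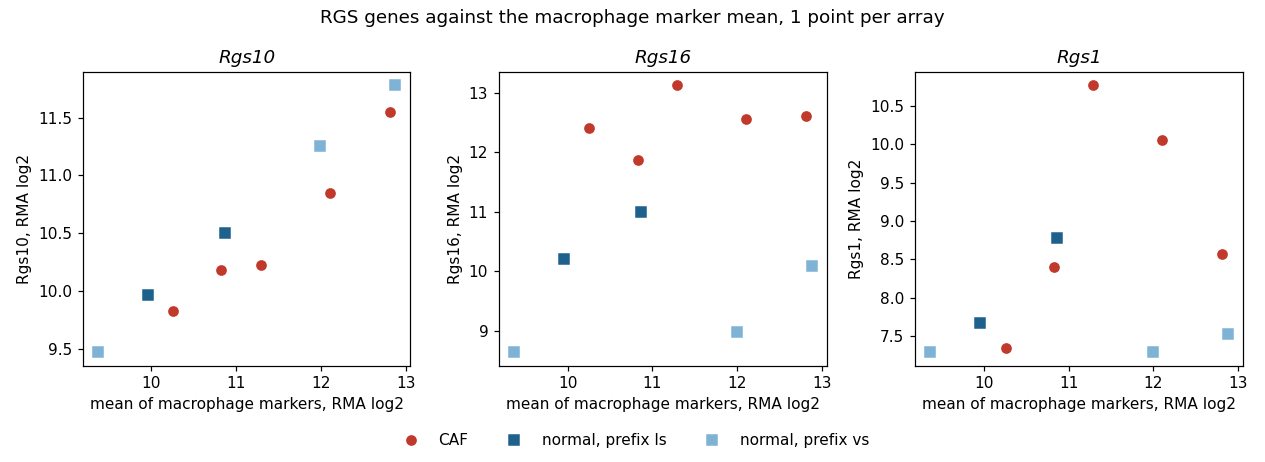
RMA log2 expression of Rgs10, Rgs16 and Rgs1 (vertical axes, each with its own range) against the mean of 16 macrophage and monocyte markers (horizontal axis), 1 point per array. The Rgs10 points of both groups fall along 1 rising line (r = 0.96, n = 10), and the points of Rgs16 and Rgs1 are more scattered (r = 0.27 and 0.26, n = 10 each).

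Of 14 other genes listed for the family, 11 were measured and 0 passed limma's test (6 at an unadjusted p under 0.05, beside 22.3% of all genes); 3 had a positive and 8 a negative difference, with a median of -0.12. Rgs12, a large scaffold with a Ras-binding domain, had 9.58, 9.35, 9.87, 9.57 and 9.57 on the CAF arrays, against 8.69, 9.18, 8.47, 8.86 and 9.01 on the normal arrays. CAF lay wholly above normal, as for 2.97% of all genes. The difference was 0.74 ± 0.14 (limma adjusted p = 0.0515), but the 2 dimmer probe sets had -0.05 ± 0.07 and 0.01 ± 0.09. Rgs7bp, which anchors R7 proteins at the membrane, had a difference of 0.65 ± 0.18 (limma adjusted p = 0.0899), beside 0.57 ± 0.15 and 0.26 ± 0.15 on its dimmer probe sets. All 4 R7 genes had negative differences, as did 10416 of the 18193 genes tested. They ran from -0.38 for Rgs11 to -0.12 for Rgs6 (0.04 on its other probe set). Rgs9 and Rgs7 had -0.36 ± 0.10 (limma adjusted p = 0.0921) and -0.16 ± 0.07 (limma adjusted p = 0.200). Rgs11, Rgs7 and Rgs6 were dim, with means of 6.39, 5.26 and 5.43 in CAF and 6.77, 5.42 and 5.55 in normal cultures. Rgs20 of the RZ subfamily had -0.15 ± 0.05 (limma adjusted p = 0.140) and a dimmer probe set at 0.56 ± 0.22, so its direction depends on the probe set. Rgs14 of the R12 subfamily had -0.35 ± 0.24 (limma adjusted p = 0.415). By subfamily, the median difference was 0.57 over the 9 R4 genes measured, 0.01 over the 3 RZ genes, -0.07 over the 3 R12 genes and -0.26 over the 4 R7 genes, and 1 R4 gene (Rgs16) and 0 of the others were called, against 0.753% of all genes in either direction.

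The lists of G protein subunits had no called member, beside 0.753% of all genes called in either direction. The counts at an unadjusted p under 0.05 given for each list stand beside 22.3% of all genes. Of 7 alpha subunits of the Gi class 0 passed limma's test (2 at an unadjusted p under 0.05), with a median difference of -0.04. Gnai1 had 0.53 ± 0.20 (limma adjusted p = 0.173) and Gnao1, the neuronal Go subunit, -0.30 ± 0.10 (limma adjusted p = 0.125). Of 4 alpha subunits of the Gq class 0 passed (1 at an unadjusted p under 0.05), with a median of 0.15. Gnaq had 0.64 ± 0.20 (limma adjusted p = 0.113) and Gna14 0.23 ± 0.10 (limma adjusted p = 0.229). Of 4 subunits of the Gs and G12 classes 0 passed (1 at an unadjusted p under 0.05), with a median of 0.16; Gna13 had 0.32 ± 0.11 and Gnal -0.16 ± 0.09. Of 15 beta and gamma subunits 0 passed (4 at an unadjusted p under 0.05), with a median of 0.15. Gng2, a gamma subunit, had means of 10.82 ± 0.36 in CAF and 9.53 ± 0.58 in normal cultures (SD, n = 5 each), a difference of 1.29 ± 0.28 (limma adjusted p = 0.0625), and Gng4 had -0.28 ± 0.07 (limma adjusted p = 0.0829). Of the 15, CAF lay wholly above normal for 1 (Gng2) and wholly below for 2 (Gng4 among them). Over all genes these shares were 2.97% and 4.19%.

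Upstream and downstream of the G proteins, 1 gene was called. Of 37 receptors of stromal cells measured, 1 rose, 0 fell and 36 did not pass, beside 0.561% of all genes called higher and 0.192% lower, with a median difference of 0.19 and 22 positive. The gene that rose was Lpar4, a receptor for lysophosphatidic acid, with 7.21 ± 0.38 in CAF and 6.08 ± 0.26 in normal cultures (SD, n = 5 each; difference 1.13 ± 0.19, limma adjusted p = 0.0483). Its difference was 0.92 with the ls normal arrays alone and 1.26 with the vs normal arrays alone, and with the prefix as a term of the model 0 of all genes were called (2649 at an unadjusted p under 0.05). Bdkrb2, the bradykinin B2 receptor, had 2.13 ± 0.51 without overlap between groups (limma adjusted p = 0.0713). CAF lay wholly above normal for 2 of the 37 receptors and wholly below for 0, beside 2.97% and 4.19% of all genes. Of 7 receptor kinases and arrestins 0 passed (1 at an unadjusted p under 0.05), with a median of -0.07, and Grk3 and Grk4 had -0.26 ± 0.11 and 0.39 ± 0.19. Of 25 effectors 0 passed (5 at an unadjusted p under 0.05), with a median of 0.15 and 19 positive. Pde4d, a phosphodiesterase that breaks down cyclic AMP, had 1.02 ± 0.28 (limma adjusted p = 0.0902), and Adcy2, an adenylyl cyclase that makes it, 1.16 ± 0.35 (limma adjusted p = 0.109).

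The genes whose values over the 10 arrays were most like those of Rgs16 were Slc6a17, Prss46, Arhgap31, Lif and Sgtb, each with a Pearson r of 0.95, a measure of likeness by which they were picked. All 5 were called higher in CAF, with differences of 1.71, 1.39, 0.86, 2.35 and 0.73, so the group difference enters this likeness. With each group's mean subtracted, the most alike were Kcna5 (r = 0.93), Cyb5b (0.86), Adamts19, Htr6 and Pdrg1 (0.85 each). None of these 5 was called in limma, and their differences ran from -0.11 to 0.43. Kcna5, Adamts19 and Htr6 were dim, where the lowest value on the arrays was 3.98. Their means were 4.93, 5.14 and 5.76 in CAF and 4.87, 5.25 and 5.79 in normal fibroblasts. With 10 arrays and 18193 genes, such likeness is a description of these arrays.

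The arrays carried the markers of fibroblasts. The mean of 10 fibroblast markers was 12.67 to 14.05 in CAF and 12.71 to 14.53 in normal fibroblasts, and Col1a2, Vim and Fn1 were among the brightest, at 15.02, 14.81 and 14.75 in CAF and 15.18, 14.73 and 14.73 in normal fibroblasts. Macrophage markers were bright in both groups, with all 16 of 16 measured, and their mean per array averaged 11.46 ± 1.02 (CAF) and 11.01 ± 1.44 (normal; SD, n = 5 each). The brightest, Lyz2, C1qb and Tyrobp, were at 15.02, 12.67 and 12.88 in CAF and 14.76, 12.54 and 12.50 in normal fibroblasts. No macrophage marker was called in limma (0 at an unadjusted p under 0.05), and 15 had a positive difference. The lists of the other cell types had no called marker either, beside 0.753% of all genes called in either direction. At an unadjusted p under 0.05 were 4 of 7 mast cell, 4 of 8 neural and Schwann cell and 5 of 11 endothelial markers. So were 3 of 11 epithelial, 3 of 10 lymphocyte, 3 of 8 platelet and megakaryocyte and 1 of 9 neutrophil markers. The share over all genes was 22.3%. The mean of the lymphocyte markers was 6.28 in CAF and 6.40 in normal fibroblasts, and that of the platelet and megakaryocyte markers 8.31 in CAF and 8.19 in normal fibroblasts. The mast cell markers were at 5.74 in CAF and 5.90 in normal fibroblasts, the endothelial ones at 6.52 and 6.64, and the epithelial ones at 6.71 and 6.96. The neural and Schwann cell markers were at 6.81 in CAF and 6.33 in normal fibroblasts. The part of these cells in the differences of the RGS genes was not tested. The medians of the arrays, over all probe sets but controls, were 6.73 to 6.74 in CAF and 6.76 to 6.79 in normal fibroblasts. The upper quartiles were 9.21 to 9.29 in CAF and 9.05 to 9.12 in normal fibroblasts. The SDs were 2.41 to 2.44 and 2.33 to 2.39, so the CAF values were spread more widely. The median difference was -0.04 over all genes and 0.08 among genes above the median level. The part of this spread in the differences of the RGS genes was not tested.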

How the data were processed

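Total RNA (6 ug per array) was labelled with biotin and hybridised to 1-colour Affymetrix Mouse430_2 arrays. The log2 expression values deposited by the authors were made with RMA, per the submitters' processing notes, which also name Affymetrix Expression Console and limma. RMA subtracts background, makes the probe distributions of all arrays alike and summarises each probe set, so differences are relative to the rest of the array, and it gives no detection call. The values ran from 3.98 to 15.5.

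Of 45101 probe sets, 64 controls were left out. Of the rest, 34945 had 1 gene symbol in the platform annotation, 932 had several and 9160 were not listed. Symbols were updated through Entrez numbers (34741 found) in the gene table of GRCm38.p6, which was used for names, chromosomes and neighbours. The probe set with the highest mean over the 10 arrays stood for its gene, giving 18193 genes.

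The test was limma's (version 3.58.1, R 4.3.3; lmFit, eBayes), group as the only term, with Benjamini-Hochberg adjustment over all genes. Adjusted p-values are from this fit unless another is named, and differences are CAF minus normal, log2, ± moderated SE. The fit was tested on simulated data. The number of arrays limits the precision.

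The members, the gene lists and the marker lists were chosen with earlier results of these data known. The text names all 10 listed genes, the 2 members of each gene list with the smallest p, the 3 brightest markers of fibroblasts and of macrophages, and the 5 genes most like Rgs16 by each of 2 measures. Markers are given as the mean log2 level of their list. Some genes were named after their values were seen. These were Rgs6, Rgs11, the single markers of pericytes and of platelets, and the genes with an array far from its group. Alternatives covered probe sets, scaling, filter, prior, array weights, replicate block, label prefix, an exact permutation test and leaving out each array.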

Additional observations from a re-analysis of the deposited data

Results flagged for a closer look

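A check for a sample far from the others of its group was run on 90 groups (45 named genes, CAF and normal). The gap of the farthest array to its neighbour, over the range of the group, passed Dixon's 95% critical value in 8 groups; chance flags about 1 in 20.

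Of the listed genes, 4 had such an array, each in the normal group. Rgs5 was at 8.08 on normal replicate 2, against 5.65 to 6.11 on the other normal arrays, and Rgs1 at 8.77 on normal replicate 4, against 7.29 to 7.67. Rgs18 was at 5.33 on normal replicate 3, against 4.51 to 4.71, and Rgs2 at 7.05 on normal replicate 5, against 8.28 to 8.74.

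Rgs8, the neighbour of Rgs16 on the chromosome, was at 7.79 on CAF replicate 4, against 5.40 to 5.88 on the other CAF arrays and 5.46 to 5.91 on the normal arrays. That array also had the highest value of Rgs16, 13.12. Rgs9bp was at 6.07 on normal replicate 3, against 5.76 to 5.79. Cyb5b was at 11.89 on CAF replicate 2, against 12.11 to 12.16, and Gna14 at 6.77 on CAF replicate 1, against 6.41 to 6.48.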

How the results depend on the processing

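The number of genes called over the whole table was 137 and depended on the fit. It was 285 with median centring, 50 among genes above the median level, 46 with a trended and robust prior, 1597 with array weights, 429 with probe sets tested singly and 1 against the ls normal arrays. It was 0 with the replicate block, with the prefix as a term and with the exact permutation test (an unadjusted p under 0.05 was reached by 3017, 2649 and 4070 genes in these fits), and 0 to 166 without 1 array. Quantile normalisation turned the split of 102 higher and 35 lower into 43 and 49. Of the 10 listed genes, 1 was called (Rgs16); 2 were with median centring and with array weights, and 0 with the replicate block, the prefix as a term, the ls normal arrays alone and the exact permutation test, and 0 to 1 without 1 array. Rgs16 was called in 11 of 22 alternatives (adjusted p 0.0194 to 0.298), with differences of 1.91 to 3.28, all positive. The smallest p of the exact test, 0.00794, became 0.111 after adjustment over all genes, so it could call none. Rgs1, Rgs2, Rgs4, Rgs5 and Rgs17 stayed positive in all alternatives run.

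Differences near 0 changed sign. Rgs3 (0.11) was -0.092 against the vs normal arrays, and -0.038 to 0.20 without 1 array. Rgs10 (-0.07) was 0.17 with array weights and 0.29 against the ls normal arrays or with the prefix as a term, and -0.35 to 0.23 without 1 array. Rgs18 (-0.085) was 0.14 against the ls normal arrays or with the prefix as a term, and -0.14 to 0.060 without 1 array. Rgs19 (0.01) was -0.070 with quantile normalisation, -0.12 with array weights and -0.18 against the ls normal arrays or with the prefix as a term, and -0.22 to 0.13 without 1 array. The cause was not tested. Rgs4, Rgs5, Rgs17 and Rgs18 lie below the median level, so the filter on it gave them no value. RMA gives no detection call, so the size of differences of dim genes such as Rgs17 and Rgs18 is limited by the background.

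Nothing in the labels says that a replicate number marks a shared animal or day. Same-numbered arrays had correlations of their deviations from the group means of 0.34, -0.53, -0.48, -0.06 and -0.09, so the replicate block pairs arrays by number alone; with it Rgs16 had 2.73 ± 0.22 (limma adjusted p = 0.115).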
